A study of Homo sapiens with 6 samples.

Results

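Mitochondrial ribosomal proteins build the ribosome that works inside mitochondria. Their genes lie in the nucleus, and the proteins are made in the cytosol and imported. There they join ribosomal RNAs of the mitochondrial genome in a large subunit (MRPL symbols) and a small subunit (MRPS symbols). This ribosome makes the few proteins that the mitochondrial genome encodes, all of them core subunits of the respiratory chain and ATP synthase. Members were the genes whose symbol is MRPL or MRPS followed by a number and an optional letter, without pseudogenes and antisense genes. Of the 17211 genes in the deposited table, 75 fitted, 47 with MRPL and 28 with MRPS symbols. The name table held 78 such symbols, and MRPL30, MRPL45 and MRPS21 were not analysed here. The proteins of the 2 symbol sets match the subunits closely but not fully, since MRPS30 and MRPS18A sit in the large subunit and MRPS36 is now known as a part of the oxoglutarate dehydrogenase complex.

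The data come from CAOV2, a human ovarian cancer line that the labels also call primary cells. In 3 libraries the cells had been given siRNA against TAZ (siTAZ) and in 3 others a non-targeting siRNA (siNT), at 100 pmol each with the same lipid reagent for 2 days, and RNA was taken on day 3. TAZ, the product of WWTR1, is a coactivator that binds TEAD transcription factors downstream of the Hippo pathway. The labels call the samples biological replicates but do not name separate cultures or dates. The p-values therefore speak only to the scatter among these 6 libraries, some of which may be technical.

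The libraries held 25478595 to 34488196 reads in genes. WWTR1 stood at 4359, 4217 and 4258 with siNT and fell to 242, 277 and 280 with siTAZ. All 8 epithelial markers checked were in the table, with a summed level of 103144 to 112045 in siNT and 94861 to 103343 in siTAZ. That sum covers 4 markers that fell, such as CLDN4 (2.73-fold) and KRT7 (2.66-fold), and 4 that rose, such as EPCAM (2.72-fold) and CDH1 (2.27-fold). Markers of ovarian carcinoma were scarce: 4 of 6 were listed (PAX8, MUC16, MSLN and FOLR1), with a sum of 35.6 to 66.3 in siNT and 44.4 to 56.1 in siTAZ. Of 7 leukocyte markers 3 were listed (LYZ, CD14 and CD68, but neither PTPRC nor CD3E). Their sum was 137 to 145 in siNT and 268 to 318 in siTAZ. LYZ rose 6.08-fold from a mean of 20.9 and CD14 1.855-fold from 61.9, and CD68 was not called. None of 5 endothelial markers was listed. Of 7 fibroblast markers 6 were listed, with a sum of 5610 to 6399 in siNT and 6615 to 7502 in siTAZ, where 3 rose, among them COL3A1 (2.13-fold), and COL1A2 fell from a level of at most 15.7. The part of these shifts in the results below was not tested.

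Promoters are shown first, because genes of this family are known for housekeeping promoters read by ETS factors such as GABP, by YY1 and by NRF1 (nuclear respiratory factor 1). RefSeq promoters (GRCh38.p14, 250 bases before to 50 after the start of transcription) matched 66 of the 75 members by symbol, and the first listed start of each gene was used. The lines below give the 100 bases before the start, 5′ to 3′ on the gene's strand. They show MRPL36 and MRPL33, which had the largest falls after TAZ silencing, MRPL58 and MRPL41, which also fell, and MRPL50 and MRPL17, which were called higher. Capitals mark matches to the 6 motifs searched.
MRPL36 (chr5:1799838-1799937, minus strand): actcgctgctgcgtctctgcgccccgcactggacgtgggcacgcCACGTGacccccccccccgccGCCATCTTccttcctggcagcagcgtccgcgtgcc
MRPL33 (chr2:27771619-27771718, plus strand): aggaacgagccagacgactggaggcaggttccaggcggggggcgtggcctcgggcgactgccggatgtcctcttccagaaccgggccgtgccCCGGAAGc
MRPL58 (chr17:75012570-75012669, plus strand): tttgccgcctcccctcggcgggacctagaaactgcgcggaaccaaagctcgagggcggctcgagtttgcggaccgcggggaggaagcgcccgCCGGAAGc
MRPL41 (chr9:137551779-137551878, plus strand): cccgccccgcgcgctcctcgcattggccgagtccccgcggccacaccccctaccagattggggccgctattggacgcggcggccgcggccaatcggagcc
MRPL50 (chr9:101398619-101398718, minus strand): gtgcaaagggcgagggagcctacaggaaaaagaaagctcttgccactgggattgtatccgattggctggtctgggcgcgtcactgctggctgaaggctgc
MRPL17 (chr11:6683341-6683440, minus strand): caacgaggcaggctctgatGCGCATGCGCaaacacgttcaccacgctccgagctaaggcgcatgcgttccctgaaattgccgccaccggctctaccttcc

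The MRPL36 window held an E-box (CACGTG, the letters bound by MYC and related factors) and, on its other strand, the YY1 letters. The windows of MRPL33 and MRPL58 each ended in an ETS match just before the start. MRPL17 held the NRF1 letters, which read the same on both strands there, and the windows of MRPL41 and MRPL50 held none of the 6 motifs, although a YY1 match in MRPL50 lay just after its start. Upstream of the printed windows, MRPL36 also held the NRF1 letters (first base at -110) and MRPL58 a further ETS match (first base at -193). Motifs were searched on both strands over all 300 bases, and no match of one motif shared a base with a match of another in the members' promoters.

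The ETS letters CCGGAAG were found in 27 of 66 member promoters (40.9%), against 18.4% of 10758 promoters of tested protein-coding genes and 10.7% of all 27305 promoters. The YY1 letters AAGATGGC were in 19 member promoters (28.8%), against 5.19% of the coding genes' promoters and 3.03% of all. ETS and YY1 letters were thus more frequent in this family than in either larger set. For the other 4 motifs the family lay nearer the larger sets. NRF1 letters (GCGCA, any base, then GCGC) were in 6 member promoters (9.09%, against 11.2% of the coding genes' and 6.28% of all), and the E-box in 5 (7.58%, against 9.96% and 7.43%). TEAD letters (GGAATG), the site of the partners of TAZ, were in 10 (15.2%, against 10.7% and 14.0%), and AP-1 letters (TGANTCA) in 1 (1.52%, against 4.59% and 7.76%). Members called lower and the other members differed little for the YY1 letters, at 12 of 40 and 7 of 26. For the ETS letters the numbers were 19 of 40 and 8 of 26, and for the TEAD letters 5 of 40 and 5 of 26. These are counts of letters in a window, and no binding was measured.

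**Figure D1:**
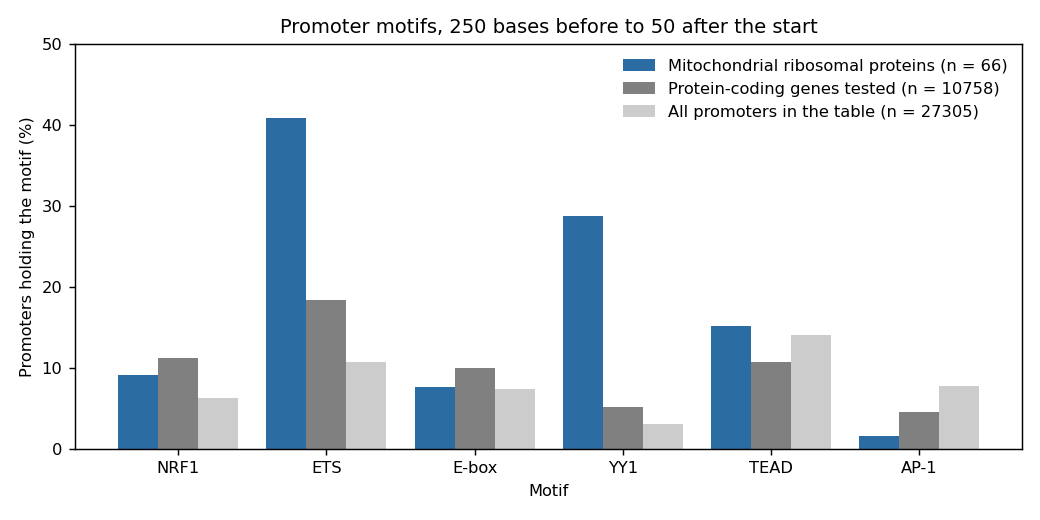
Bars give the percentage of promoters that hold each motif on either strand, for mitochondrial ribosomal protein genes, for all tested protein-coding genes and for all promoters in the table. The ETS bar of the family stands at 40.9% and its YY1 bar at 28.8%, above both larger sets, while the other motifs lie nearer to them, from 15.2% for TEAD to 1.52% for AP-1.

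Most members were lower after TAZ silencing, by small amounts. Levels are the deposited values, reads divided by a size factor for each library, and a gene was called at an adjusted p under 0.05 in limma over all 17204 genes tested. All 75 members passed the filter on low values. Of these, 46 fell, 3 rose and 26 did not pass. Among all genes tested, 27.5% were called lower and 28.3% higher. The members are abundant, and among the 6343 genes whose mean was 1000 or more, where small changes are easier to call, 38.4% were lower and 30% higher. Of the 59 members in that range, 38 fell and 2 rose. The median log2 fold change of the members was -0.22, against -0.00126 over all genes tested. The groups' libraries did not overlap in 47 members that were lower and 5 that were higher, where 30.3% and 31.1% of all genes had no such overlap. Against a fold of 1.2 in limma's treat test, 15 members were lower and 0 higher, with 11.2% and 14.5% of all genes past that test. On the recovered reads, edgeR called 45 members lower and 3 higher (29.2% and 31.2% of its genes), and DESeq2 called 42 lower and 2 higher (25.3% and 25.6%). Scaling by total counts gave 40 lower and 6 higher (23.5% and 32.3% of all genes). A fit with the replicate number as a block gave 41 lower and 1 higher (24.8% and 25.8%).

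Summed over the 75 members, the family took 0.539%, 0.537% and 0.538% of reads with siNT and 0.487%, 0.477% and 0.490% with siTAZ. Every siTAZ library was below every siNT library. Falls of at least 1.2-fold were seen in 30 members and of at least 1.5-fold in 6. In bulk RNA, less RNA per cell and fewer cells that express a gene cannot be told apart.

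**Figure D2:**
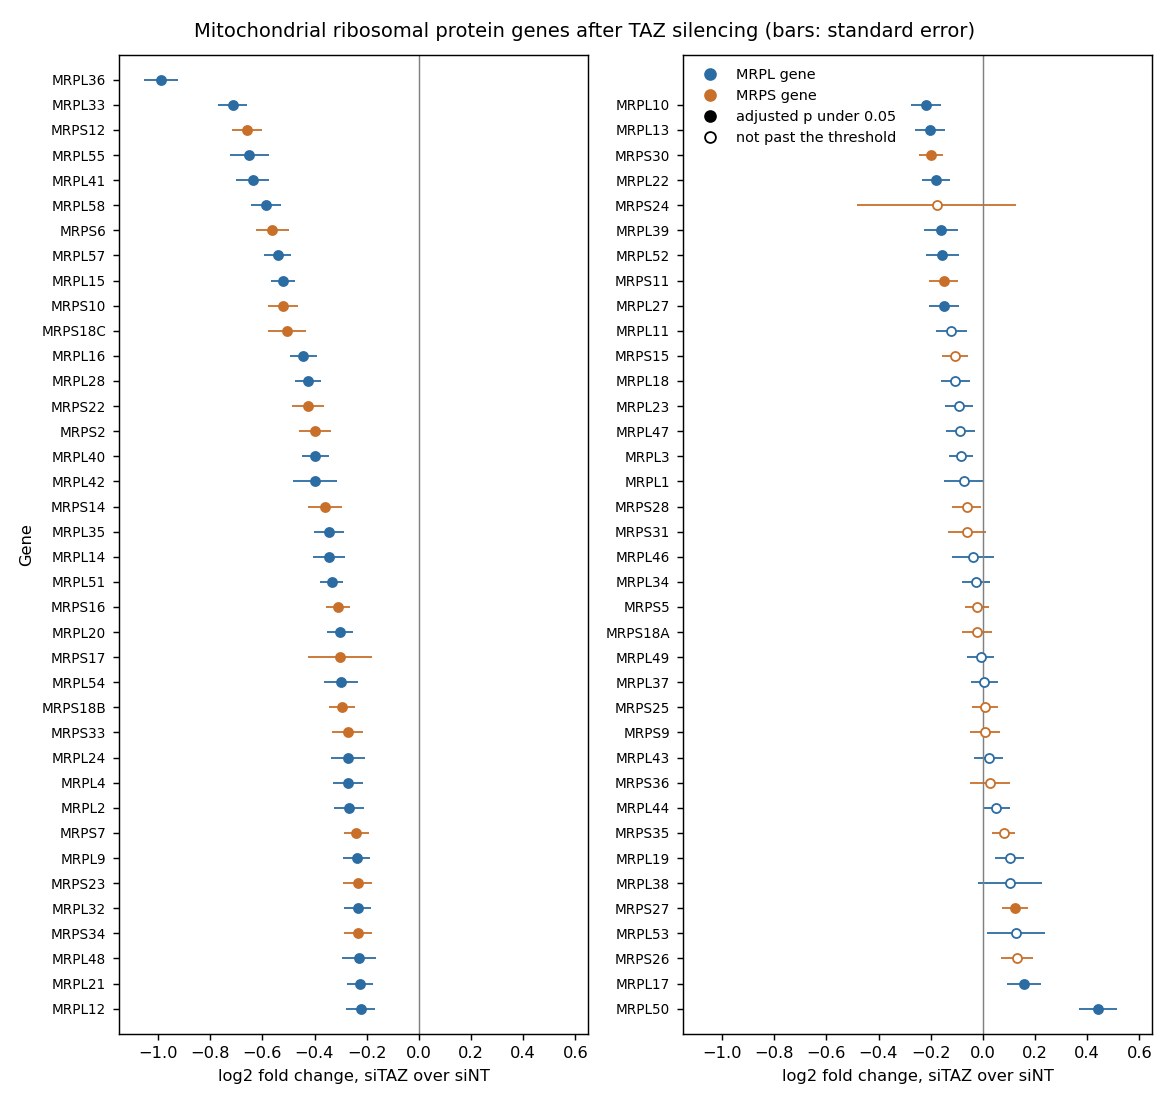
Each point is 1 of the 75 genes, placed by its log2 fold change (siTAZ over siNT, horizontal axis) with its standard error as a bar, and filled where it passed an adjusted p of 0.05 in limma. Points of MRPL genes (blue) and MRPS genes (orange) overlap over most of their ranges, from -0.99 for MRPL36 to 0.44 for MRPL50 among the MRPL genes and from -0.66 to 0.13 among the MRPS genes.

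Both subunits took part. Of the 47 MRPL genes 30 fell and 2 rose (median log2 fold change -0.22), and of the 28 MRPS genes 16 fell and 1 rose (median -0.22). The ratio of summed MRPL to summed MRPS levels was 1.47, 1.48 and 1.47 with siNT and 1.43, 1.39 and 1.41 with siTAZ. It was thus lower in every siTAZ library. Such sums lean on abundant genes, and the MRPS sum holds MRPS35 (mean 10164 in siNT and 10738 in siTAZ), which did not fall. It also holds MRPS30 (mean 5889 in siNT), a protein of the large subunit. The ratio without these genes was not computed, so no shift between the subunits is read from it. By class, 44 members were taken as counterparts of bacterial ribosomal proteins and 30 as specific to mitochondria, with MRPS36 in neither class. Of the former 30 fell and 1 rose (median -0.24), and of the latter 16 fell and 2 rose (median -0.16). The mitochondria-specific class includes MRPS18A and MRPS18B, although both are relatives of bacterial S18, so the split is not strictly one by origin. The difference between these classes was not tested.

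Among the large subunit genes, MRPL36 fell most. It encodes the counterpart of bacterial L36, a small zinc-binding protein of the large subunit. Its levels were 1046, 1020 and 1044 with siNT and 561, 503 and 505 with siTAZ, a 1.98-fold fall (log2 fold change -0.99, SE 0.065, limma adjusted p = 1.4e-09). Every siTAZ library lay far below the lowest siNT library. MRPL33, the counterpart of bacterial L33, stood at 1681, 1611 and 1733 in siNT and at 1007, 1013 and 1041 in siTAZ, and fell 1.64-fold (log2 fold change -0.71, SE 0.054, limma adjusted p = 8.4e-09). The groups were far apart relative to their own spread. In MRPL33, 21.1% of the annotated exon bases are shared with another gene on the same strand, which limits how its reads can be assigned. MRPL55, the counterpart of bacterial L31, had 682, 766 and 744 in siNT and 505, 440 and 453 in siTAZ (a 1.57-fold fall, limma adjusted p = 1.2e-06).

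MRPL41 and MRPL57 have no bacterial counterpart. MRPL41 stood at 2044, 2227 and 2156 in siNT and 1514, 1322 and 1302 in siTAZ, and fell 1.55-fold (limma adjusted p = 1.8e-07). MRPL57 stood at 3147, 3308 and 3259 against 2371, 2156 and 2157, and fell 1.45-fold (limma adjusted p = 1.5e-07). In both genes, and in MRPL36 and MRPL55, siTAZ replicate 1 was the highest siTAZ library, though still below every siNT library. MRPL58, once named ICT1, is a peptidyl-tRNA hydrolase built into the large subunit that can free stalled chains. It had 1029, 1071 and 1069 in siNT and a narrow 702, 699 and 710 in siTAZ (log2 fold change -0.59, limma adjusted p = 2.0e-07).

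MRPL15, the counterpart of bacterial L15, was among the most abundant members and had 4725, 4708 and 4735 in siNT and 3211, 3230 and 3429 in siTAZ, a 1.44-fold fall (limma adjusted p = 5.4e-08). The siNT libraries differed by well under the gap between the groups.

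The stalk of the large subunit, where translation factors dock, is formed around MRPL10, MRPL11 and MRPL12. MRPL10 fell 1.16-fold, from 1578, 1689 and 1664 to 1506, 1394 and 1339 (limma adjusted p = 0.0038). MRPL12 fell 1.17-fold, from 1631, 1797 and 1801 to 1545, 1427 and 1504 (limma adjusted p = 0.0031). Both sets of libraries were close but did not overlap. MRPL11 did not pass (limma adjusted p = 0.094), and its libraries overlapped, at 1821, 2072 and 1996 in siNT and 1881, 1695 and 1834 in siTAZ. The call for MRPL11 was gained without siNT replicate 1 or siTAZ replicate 1, with an adjusted p of 0.018 to 0.36 over 16 alternatives. In MRPL12, 68.2% of the annotated exon bases are shared with another gene on the same strand, which limits how its reads can be assigned.

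Among the small subunit genes, MRPS12 fell most. It is the counterpart of bacterial S12, which lines the decoding centre where codons are read. Its levels were 3013, 3490 and 3312 in siNT and 2176, 2050 and 1981 with siTAZ. The fall was 1.58-fold (log2 fold change -0.66, SE 0.059, limma adjusted p = 5.5e-08). The lowest siNT library was still well above the highest siTAZ library. MRPS6, the counterpart of bacterial S6, stood at 1321, 1245 and 1266 in siNT and at 842, 822 and 937 in siTAZ, and fell 1.47-fold (limma adjusted p = 8.5e-07).

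The MRPS18 genes are 3 relatives of bacterial S18 with separate places in the ribosome: MRPS18C holds the place of S18, MRPS18B sits elsewhere in the small subunit and MRPS18A in the large one. MRPS18C fell 1.42-fold, from 696, 741 and 697 to 474, 487 and 545 (limma adjusted p = 1.3e-05). MRPS18B fell 1.23-fold, from 2163, 2148 and 2188 to 1804, 1682 and 1816 (limma adjusted p = 0.00011). MRPS18A did not pass, with 1451, 1651 and 1541 in siNT and 1561, 1469 and 1537 after silencing (log2 fold change -0.02, limma adjusted p = 0.76). Its libraries overlapped fully, while those of the other 2 did not overlap. The log2 ratio of MRPS18C to MRPS18A was -1.06, -1.16 and -1.14 in siNT and -1.72, -1.59 and -1.49 in siTAZ. That ratio, and those of MRPS18B to MRPS18A and MRPS18C to MRPS18B, each differed without overlap between the groups. The two-sided exact permutation p was 0.10 for each of the 3 ratios, which is the smallest that 3 against 3 libraries allow, and 0.10 after Benjamini-Hochberg adjustment over them. In MRPS18A 47.0% and in MRPS18C 40.2% of annotated exon bases are shared with a gene on the other strand, and no source used here says whether reads were counted by strand. Its direction also turned with the scaling: MRPS18A was at 0.031 on the log2 scale under total count scaling.

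**Figure D3:**
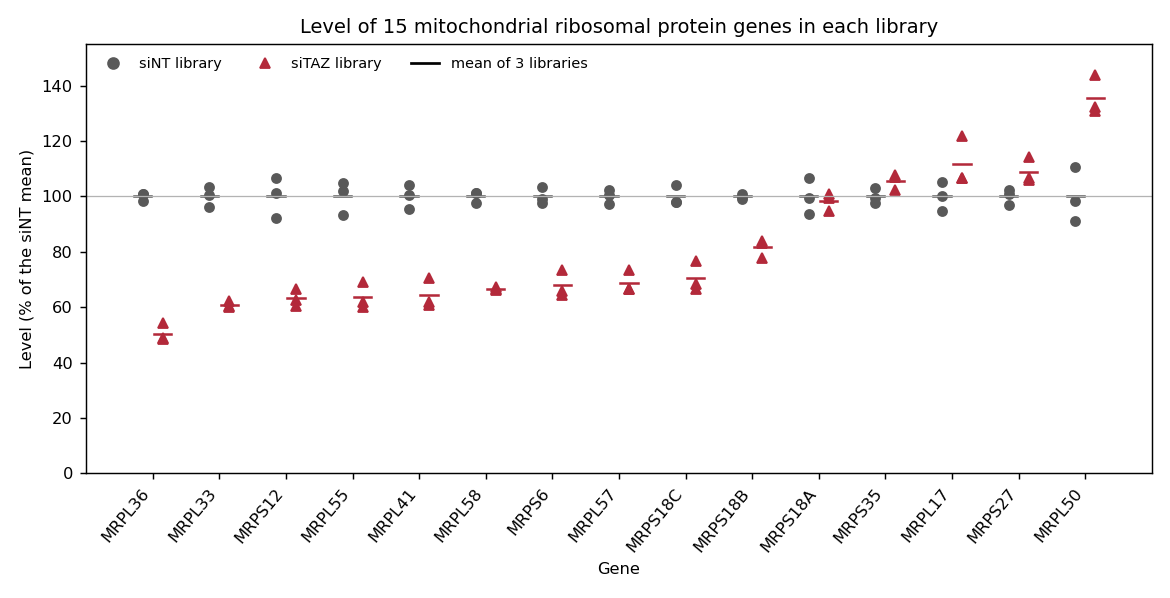
Points give the level of 15 genes in each library as a percentage of the gene's siNT mean (circles siNT, triangles siTAZ), and short lines the mean of 3 libraries. The 3 siTAZ libraries lie below all siNT libraries from MRPL36 to MRPS18B, mix with them in MRPS18A and MRPS35, and lie above them in MRPL17, MRPS27 and MRPL50.

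Rises were few. MRPL50, which has no bacterial counterpart, rose 1.36-fold, from 712, 588 and 634 in siNT to 844, 853 and 926 after TAZ silencing (0.44 on the log2 scale, SE 0.074, limma adjusted p = 7.8e-05). All siTAZ libraries were above the siNT libraries, and the gene was called higher under all 16 alternatives to the test, scaling and samples other than the fold of 1.2. MRPL17, the counterpart of bacterial L17, had 1162, 1103 and 1223 in siNT and 1417, 1241 and 1240 in siTAZ (1.12-fold, limma adjusted p = 0.047). That call was lost in 5 of these alternatives (adjusted p 0.0098 to 0.19), namely DESeq2, the replicate block and the fits without siNT replicate 1, siNT replicate 2 or siTAZ replicate 1. MRPS27, a small subunit protein with RNA-binding repeats, had 2930, 2823 and 2976 in siNT and 3107, 3084 and 3320 in siTAZ (1.09-fold, limma adjusted p = 0.043). It too was lost, with the replicate block and without siNT replicate 1, 2 or 3 or siTAZ replicate 2 or 3 (adjusted p 0.0054 to 0.21 over the 16). MRPS26, next outside the threshold, had 958, 1048 and 1037 in siNT and 1159, 1052 and 1125 in siTAZ (limma adjusted p = 0.076).

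Levels between genes are compared per kilobase of annotated exon, with all transcripts merged. On that scale the median member had a mean deposited value of 648 per kilobase. MRPS35, a small subunit protein added in mitochondria, was the highest at 5281 per kilobase. Its levels of 10451, 9922 and 10119 in siNT and 10384, 10866 and 10965 in siTAZ overlapped and did not pass (limma adjusted p = 0.14). It was called higher under total count scaling, where the adjusted p was 0.017. MRPS34, another small subunit protein, was next at 3499 per kilobase and fell 1.18-fold, from 3921, 4237 and 4286 to 3741, 3405 and 3437 (limma adjusted p = 0.0011). MRPL15 was the third, at 3364 per kilobase. The most abundant members thus included one that did not pass and others that fell.

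The lowest members were MRPS24 at 5.65, MRPL38 at 29.8 and MRPS17 at 52.0 per kilobase. MRPS24, the counterpart of bacterial S3, had only 20.9, 16.0 and 10.9 in siNT and 13.5, 11.9 and 15.4 in siTAZ, too few for its fold to be read (SE 0.31). MRPL38 had 98.4, 109 and 108 in siNT and 122, 115 and 103 in siTAZ and did not pass. MRPS17 had 118, 118 and 137 in siNT and 97.7, 107 and 96.4 in siTAZ, with a limma adjusted p of 0.047 that was kept in 4 of 16 alternatives. In each of the 3, between 23.2% and 37.5% of annotated exon bases are shared with another gene on the same strand, and whether the counting dropped reads there was not tested. These low values are therefore uncertain as levels.

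Reads can also be shared with copies: 33 members have at least 1 named pseudogene, and of these 22 fell and 1 rose. Of the 42 members without one, 24 fell and 2 rose. Spearman's rho of log2 fold change with exon length was 0.20 across 11328 genes with a mean of at least 100, and 0.12 across the 75 members, as a description across genes of the same libraries. Of the 38 members at or under the family's median exon length of 2539 bases, 23 fell, and of the 37 above it 23 fell, with medians of -0.25 and -0.20. The 6 falls of at least 1.5-fold were all in the shorter set. The median exon length was 4321 bases over all genes tested and 5608.5 bases at a mean of 1000 or more. The family is thus shorter than both sets it was set beside, which the split within the family cannot address. The part of length in the falls was not tested.

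The genes that serve this ribosome were described by lists. Of all genes tested 27.5% were called lower and 28.3% higher, and at a mean of 1000 or more 38.4% and 30%. Of 5 mitoribosomal proteins under other symbols, 2 fell and 0 rose (median log2 fold change -0.13). AURKAIP1, a small subunit protein, fell 1.46-fold, from 4931, 5754 and 5509 to 3976, 3502 and 3587, and GADD45GIP1, a large subunit protein, fell 1.21-fold. Of 28 measured genes that assemble the ribosome or modify its RNA, 13 fell and 1 rose (median -0.09), with 2 higher without siNT replicate 1 or siNT replicate 2 and 3 under total count scaling. NGRN, an assembly factor that binds the large ribosomal RNA, fell 1.65-fold, from 2074, 2321 and 2550 to 1523, 1320 and 1358 (limma adjusted p = 2.1e-07). ERAL1, a GTPase that chaperones the small ribosomal RNA, fell 1.28-fold, as did MPV17L2, an inner membrane protein needed for assembly. The share that fell was 46.4%, against 61.3% of the members and 38.4% of all genes with a mean of 1000 or more. These differences were not tested.

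The list of translation factors of mitochondria also holds genes that are not translation factors proper, such as LRPPRC, SLIRP, OXA1L and MTFMT. It went both ways, with 7 of 16 genes lower (43.75%) and 5 higher (31.25%, median -0.06). At a mean of 1000 or more, 38.4% of all genes were lower and 30% higher, and of all genes tested 27.5% and 28.3%. TUFM, the elongation factor that delivers tRNAs, fell 1.27-fold, from 10822, 11422 and 11281 to 9168, 8418 and 8748. MRRF, which recycles ribosomes after termination, fell 1.46-fold. MTFMT, which formylates the initiator methionyl-tRNA, rose 1.74-fold, from 437, 460 and 440 to 790, 774 and 762 (limma adjusted p = 1.9e-08). Its siTAZ libraries were all well above the siNT libraries. The import machinery, through which all members must pass, fell in 12 of 16 measured genes and rose in 0 (median -0.34). TIMM17A, a channel subunit of the inner membrane, fell 1.59-fold, from 3433, 3169 and 3178 to 1939, 2077 and 2134. TOMM40, the pore of the outer membrane, fell 1.55-fold, and TOMM20, a receptor there, fell by 0.48 on the log2 scale.

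Of 10 genes that transcribe and maintain the mitochondrial genome, 4 fell and 0 rose (median -0.15). The 40% that fell is near the 38.4% of all genes with a mean of 1000 or more. TWNK, the helicase, fell 1.24-fold, POLG, the polymerase, 1.21-fold, and SSBP1, which binds single strands, 1.19-fold. Among 10 nuclear regulators of mitochondrial biogenesis 4 fell and 4 rose, or 40% each way, against 27.5% and 28.3% of all genes tested. At a mean of 1000 or more the shares of all genes were 38.4% and 30%. NRF1 fell 1.27-fold, from 923, 929 and 931 to 718, 721 and 745, and the nuclear receptor ESRRA fell 1.28-fold. GABPB2, which encodes a partner subunit of the ETS factor GABP, rose 1.77-fold, from 186, 199 and 192 to 351, 309 and 363 (limma adjusted p = 8.5e-07). The siNT and siTAZ libraries of these genes did not overlap.

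The templates and RNA scaffold of the ribosome did not fall as a group. Of 15 transcripts of the mitochondrial genome, 1 fell, 2 rose and 12 did not pass (median 0.03), and together they took 3.40%, 2.85% and 3.06% of reads in siNT and 3.14%, 3.91% and 3.30% in siTAZ. MT-ND6, the one listed mRNA from the light strand, fell 1.38-fold, from 7405, 6614 and 7255 to 4877, 5807 and 4680 (limma adjusted p = 1.4e-05). MT-CO1, a cytochrome oxidase subunit, was called higher, from 87164, 72335 and 77075 to 87589, 107301 and 89512 (log2 fold change 0.26, limma adjusted p = 0.0066), and the small ribosomal RNA MT-RNR1 at 1.31-fold (limma adjusted p = 0.013) with overlapping libraries. Both calls were lost in DESeq2 and without siNT replicate 2 (MT-RNR1 also without siTAZ replicate 2), with an adjusted p of up to 0.063 and 0.21. Libraries made by poly(A) selection measure ribosomal RNA poorly. Without siNT replicate 1 or siTAZ replicate 1, 5 of the 15 were higher, without siNT replicate 2 none was (0), and without siTAZ replicate 2 there was 1. Total count scaling gave 4 higher, and 2 were lower without siNT replicate 2 or siTAZ replicate 2.

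For scale, of 83 cytosolic ribosomal protein genes 63 fell and 3 rose (median -0.22), and of 78 nuclear subunits of the respiratory chain 37 fell and 4 rose (median -0.12). The mitochondrial ribosomal proteins lay between them in the share that fell (61.3%, against 75.9% and 47.4%). Of all genes tested 27.5% were lower and 28.3% higher, and at a mean of 1000 or more 38.4% and 30%. In median log2 fold change (-0.22) the mitochondrial set was level with the cytosolic one. The cytosolic genes are more abundant (median level 10909.8 against 1760.6), and small changes are easier to call in abundant genes. The comparison is within the same libraries and carries no test.

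**Figure D4:**
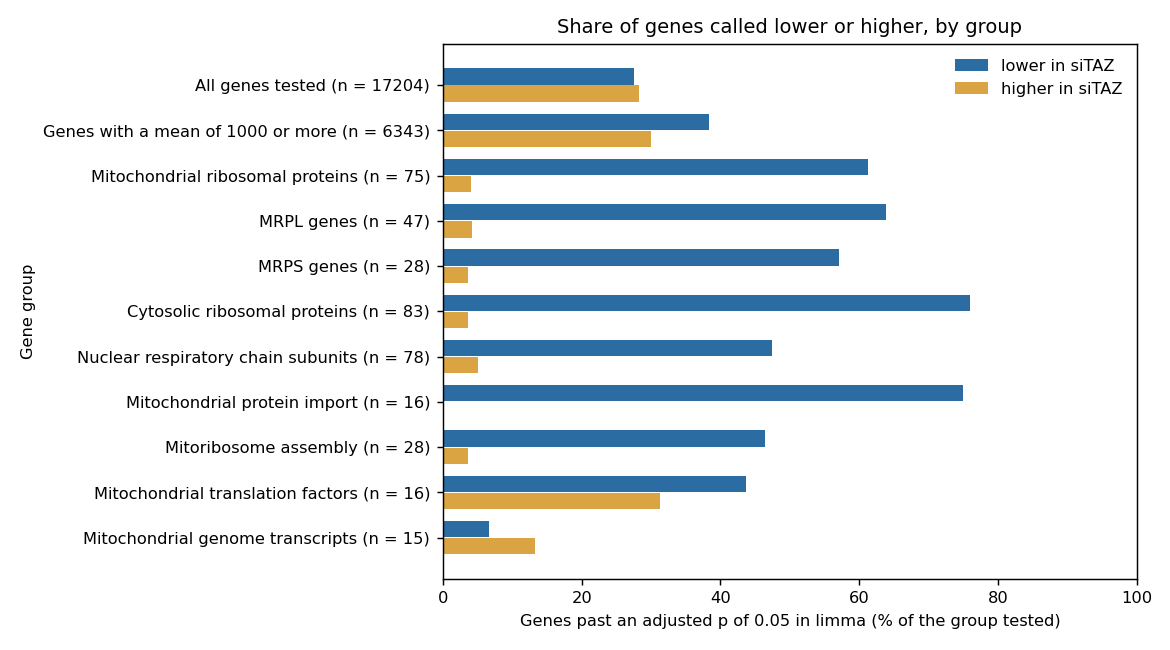
Bars give the percentage of genes in each group called lower (blue) or higher (yellow) in siTAZ by limma, with the number tested beside each name. Lower calls outnumber higher calls in each nuclear-encoded family or pathway drawn (the nuclear regulators, with 4 lower and 4 higher, are not drawn). Of the mitochondrial ribosomal proteins 61.3% were lower, and of the translation factor list 43.8%. Among all genes tested the bars are close, at 27.5% and 28.3%.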

How the data were processed

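RNA of 3 siNT and 3 siTAZ samples was sequenced from stranded poly(A) libraries, per the labels' protocols. Per the submitters' processing notes, the authors used FastQC, HISAT2, HTSeq and DESeq2 with hg19, with versions, annotation, strand setting and gene filter not given in the sources used here. Deposited values are a signal, gene reads divided by 1 size factor per library (0.828 to 1.17). In each library 100% of values were whole multiples of 1 read within 0.001, which gave back the reads. Symbols came from a table of identifiers (16662 genes) and GENCODE 29 (81), and 468 genes stayed unnamed. GENCODE 29 and RefSeq are of GRCh38 and served for names, exon lengths, exon overlap and promoters only.

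The main test was limma 3.58.1 (R 4.3.3) with an intensity trend on log2(deposited value + 1), for 17204 genes (mean deposited value 1 or more), and the model held the group alone. Adjustment was by Benjamini-Hochberg over all genes tested. Fold changes in log2 are on that scale, which understates low genes, and other folds are ratios of mean deposited values. Alternatives on the recovered reads were edgeR 4.0.16 (4541 of 15543 genes lower, 4842 higher), DESeq2 1.42.0 and voom. All tests were run on simulated data in which 200 genes were changed. There limma recovered 29 of 50 falls and 30 of 50 rises of 1.2-fold, and 49 and 48 of 50 at 1.5-fold. Many more genes were called in the real data, so the adjusted threshold differs there. A member that did not pass is therefore not shown to be unchanged. The chi-square per degree of freedom between replicates was 2.64 to 8.10, so none was a copy. Replicate 1 stood apart in both groups, at 6.3 and 5.18 in siNT and 8.1 and 7.15 in siTAZ. Between replicates 2 and 3 it was 2.64 in siNT and 2.80 in siTAZ. Every member had at least 88 reads over the 6 libraries. The fewest were in MRPS24, where depth limits what can be read of its fold.

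The members and lists were chosen with earlier results of these data known. The cytosolic ribosomal protein and respiratory chain lists, the motifs and the printed promoters were chosen after the members' values were seen. Genes described singly were the 8 largest falls and up to 8 rises among called members, the 3 highest and lowest per kilobase, the MRPS18, stalk, MRPL58 and MRPS12 genes, those nearest the threshold, and up to 3 called genes per list. Figures were drawn with matplotlib 3.10.9.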

Additional observations from a re-analysis of the deposited data

How the results depend on the processing

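Over 17 alternatives, the number of members called lower (46) stayed within 1.5 times except against a fold of 1.2, where it was 15. It was 45 by edgeR, 42 by DESeq2, 44 by voom, 40 under total count scaling and 39 to 47 with a replicate left out. Of the 46 members, 39 were called lower under all 16 alternatives other than the fold of 1.2. The exceptions were MRPS17, MRPL48, MRPL22, MRPL39, MRPL52, MRPS11 and MRPL27. The number called higher (3) was 0 against a fold of 1.2, 6 under total count scaling, and 1 to 3 with a replicate left out, being 1 without siNT replicate 1 or siNT replicate 2. The median log2 fold change of the members (-0.22) was -0.17 under total count scaling, where the median of all genes moved to 0.05, and -0.19 to -0.25 with a replicate left out. With the replicate number as a block, 41 members were lower and 1 higher. Libraries with the same number did not deviate together (correlations of -0.14, -0.08 and 0.02), so the numbers are not taken as pairs, and not every library correlated best with its own number. Among all 75 members, 11 changed direction under at least 1 of the 16 alternatives, 5 of them under total count scaling, and 0 of the 11 had been called. Of those described singly, 2 reversed: MRPS24 to 0.031 without siNT replicate 1 (range -0.41 to 0.031 with a replicate left out), and MRPS18A to 0.031 under total count scaling, 0.025 without siNT replicate 2 and 0.0028 without siTAZ replicate 2 (range -0.068 to 0.025). Against a fold of 1.2, the lists had 5 lower calls in import, 1 in assembly and 1 in the translation factor list. There was also 1 among proteins under other symbols and 1 among mitochondrial genome transcripts. Higher calls were 2 in the translation factor list and 1 among nuclear regulators. The cause of these shifts was not tested.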
